A study of Mus musculus with 6 samples.

Results

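Cluster 19 of the early postnatal mouse striatum was a group of 96 astroglial cells that carried the transcripts of motile cilia. Its members were the cells whose deposited cluster name was AST_P3_19, and they made up 96 of the 8874 astroglial cells at postnatal day 3 (P3) and of the 14373 annotated cells at both ages. The mice were wild-type C57BL/6 males aged P3 or 3 months (3m), ACSA2-positive cells of the striatum were enriched on magnetic columns, and RNA was sequenced cell by cell from 3 independent preparations per age. ACSA2 is a surface antigen used to enrich astrocytes, so the sort also set which other cells could be recovered. No animal carried a transgene or received a treatment, and the annotation of the cells was the authors' own. Cluster 19 was described here against the other 8778 astroglial cells at P3, and against LOW_23, a cluster outside the astroglial set that the authors left unidentified for its low marker expression, with 31 cells at P3 and 14 at 3m.

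Multiciliated cells bear many motile cilia on one surface, and in the brain they form the ependyma that lines the ventricles and moves cerebrospinal fluid. Ependymal cells arise from radial glia, stop dividing, and build their cilia around birth and in the first postnatal days. The geminin-related coactivators Gmnc and Mcidas start the programme, E2f4 and E2f5 act with Mcidas, and Myb, Foxj1, Trp73 and the RFX factors pass it on to the genes that build centrioles and axonemes. The many basal bodies are made largely on deuterosomes, which hold Deup1 and depend on Ccno and Cdc20b, and the axoneme that grows from each one carries dynein arms, radial spokes and a central pair of microtubules.

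*Mcidas*, *Ccno* and *Cdc20b* are neighbours on mouse chromosome 13, and the 3 genes together span 103 kb in GRCm38. *Mcidas* lies at chr13:112993845-113000394, *Ccno* at chr13:112987802-112990777 and *Cdc20b* at chr13:113035111-113091195, all on the plus strand. The sequences directly upstream of *Mcidas*, *Ccno*, *Myb* and the marker *Ccdc153* are given because these genes set cluster 19 apart from its neighbours in the comparisons that follow. They are RefSeq sequences of the gene's own strand in GRCm38.p6, written 5′ to 3′, and capitals mark the letters GTTGCC, a half-site of the motif that RFX factors bind. *Ccdc153* was taken from chr9:44240427-44240675 on the plus strand, *Mcidas* from chr13:112993618-112993844 on the plus strand, *Ccno* from chr13:112987552-112987801 on the plus strand and *Myb* from chr10:21160985-21161234 on the minus strand.
Ccdc153: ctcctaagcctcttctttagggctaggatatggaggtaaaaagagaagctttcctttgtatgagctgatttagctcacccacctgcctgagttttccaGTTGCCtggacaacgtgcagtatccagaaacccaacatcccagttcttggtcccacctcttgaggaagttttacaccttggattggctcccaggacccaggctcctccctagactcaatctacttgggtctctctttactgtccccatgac
Mcidas: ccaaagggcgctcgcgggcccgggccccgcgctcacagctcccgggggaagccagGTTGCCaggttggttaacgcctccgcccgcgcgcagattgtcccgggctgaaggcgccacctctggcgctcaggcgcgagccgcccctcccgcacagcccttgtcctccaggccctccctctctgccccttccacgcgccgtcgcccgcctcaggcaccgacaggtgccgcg
Ccno: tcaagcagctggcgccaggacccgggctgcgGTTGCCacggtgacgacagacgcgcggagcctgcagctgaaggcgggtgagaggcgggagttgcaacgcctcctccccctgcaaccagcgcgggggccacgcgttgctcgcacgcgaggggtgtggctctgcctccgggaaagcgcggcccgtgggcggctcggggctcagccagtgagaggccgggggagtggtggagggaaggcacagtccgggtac
Myb: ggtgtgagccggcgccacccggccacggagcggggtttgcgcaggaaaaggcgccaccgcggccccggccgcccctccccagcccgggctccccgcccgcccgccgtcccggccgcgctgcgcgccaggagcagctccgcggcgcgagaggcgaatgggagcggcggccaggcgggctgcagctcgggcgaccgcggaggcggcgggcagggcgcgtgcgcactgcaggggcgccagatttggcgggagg
The half-site began 152 bases before the RefSeq start of *Ccdc153*, 195 bases before that of *Mcidas* and 219 bases before that of *Ccno*, and the *Myb* window held no match. The printed sequences of *Ccdc153* and *Mcidas* were cut at the annotated gene start, which lies before the RefSeq start. They hold 249 and 227 bases, so these distances run past their ends. Windows of the 250 bases before each RefSeq start were searched on both strands. GTTGCC occurred in 10.4% of 32851 windows of 27025 genes, and in 27 of the 111 windows (24.3%) of the 95 motile cilia genes, of 116 listed, that had one. The forkhead motif GTAAACA occurred in 3.17% of all windows and in 5 of these 111 (4.5%), and the E2F motif TTCCCGC in 3.82% and in 8 (7.21%). These are matches of letters and show no binding.

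The share of cluster 19 ranged over the preparations. It held 11 of 1985 P3 astroglial cells in library 1 (0.554%, 95% Wilson interval 0.310 to 0.990), 35 of 3103 in library 2 (1.13%, 0.812 to 1.56) and 50 of 3786 in library 3 (1.32%, 1.00 to 1.74), or 1.00% ± 0.399 (SD, n = 3). None of the 1118 astroglial cells at 3m carried this name, which allows a share of up to 0.268% for the label. It is no bound on cells with motile cilia transcripts at 3m, since the 14 cells of LOW_23 at that age lay outside the astroglial set. The intervals and the bound cover counting error only, and library 1 had the lowest share. The 6 libraries held 5471573 to 37795021 unique molecular identifiers (UMIs, counts of captured RNA molecules), with the 3 P3 libraries the deeper ones, and 74 cell barcodes occurred in more than 1 library, 1 of them in cluster 19. When the authors clustered the astroglial cells again, 93 of the 96 fell into sub-cluster 15, 2 into sub-cluster 4 and 1 into sub-cluster 12. Sub-cluster 15 held 145 cells, and its other 52 cells came from cluster AST_P3_1.

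The depth of the cells was compared first, since it sets which transcripts can be seen. The median of cluster 19 was 11401 UMIs per cell in library 1, 11462 in library 2 and 10119 in library 3, against 9664, 7957 and 5417 in the other P3 astroglial cells. The median was higher in 3 of 3 libraries, by 3315 ± 1492 UMIs (SD, n = 3), with an exact two-sided permutation p = 0.25, the smallest that 3 pairs can give. Median genes per cell were 3829, 3831 and 3580 against 3284, 2774 and 2322, and the mitochondrial share was 1.96% ± 0.711 against 1.82% ± 0.604 (SD, n = 3). Levels are therefore given in counts per 1000000 UMIs (CPM) of all cells of a class in a library, and the share of cells with a transcript is given after thinning every cell to 2000 UMIs, which left out 1 cell of cluster 19 and 1112 of its neighbours.

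The 3 markers fitted the label multiciliated-like, although unequally. *Foxj1*, the forkhead factor of motile ciliogenesis, stood at 809, 713 and 1116 CPM in libraries 1, 2 and 3 of cluster 19 and at 13.8, 23.9 and 37.2 CPM in the other P3 astroglial cells. *Rsph1*, a radial spoke head protein, stood at 884, 786 and 895 CPM against 4.64, 18.6 and 22.3 CPM. *Ccdc153*, a marker of ependymal cells, stood at 104, 132 and 141 CPM against 0.0451, 0.365 and 0.50 CPM. For all 3 genes each library of cluster 19 lay above each library of its neighbours. Because the clusters were made from these same transcripts, such differences describe the cluster and were not tested. After thinning, *Foxj1* was seen in 77.9% of the cells of cluster 19 and 5.32% of the other P3 astroglial cells, and *Rsph1* in 77.9% and 3.56%. *Ccdc153* was seen in 13.7% and 0.0391%. Without thinning these shares were 99.0% and 15.6% for *Foxj1*, 100% and 9.42% for *Rsph1*, and 36.5% and 0.216% for *Ccdc153*. Endothelial cells at P3, which should lack these genes, gave 0.396% for *Foxj1*, 0.132% for *Rsph1* and 0 of 757 cells for *Ccdc153*, at a median of 3703 UMIs per cell before thinning against 10629 in cluster 19. In the unthinned data 35 of the 96 cells held a UMI of all 3 markers, 60 of 2 markers and 1 of 1, and only 5 cells outside cluster 19 and LOW_23 held all 3.

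The comparison of cluster 19 with the rest of the P3 astroglia was read as a log2 ratio of CPM within each library, after adding 5 CPM to both. A gene was counted as higher or lower where this ratio was at least 1, or at most -1, in each of the 3 libraries. Of 8917 genes with a mean of at least 10 CPM over both classes, 930 (10.4%) were higher and 319 (3.58%) lower, and the median ratio was 0.05. A gene could pass the level filter through cluster 19 alone. Of the 116 genes in 8 motile cilia lists, 107 passed it, 96 were higher, none was lower, 11 were neither, and the median ratio was 2.98. The summed level of these 116 genes was 17433, 14494 and 17272 CPM in the 3 libraries of cluster 19 and 1077, 1373 and 1586 CPM in those of the other cells. By list, the genes of the doublet microtubules and of the inner dynein arms had the highest medians and those of the basal body the lowest.

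**Figure D1:**
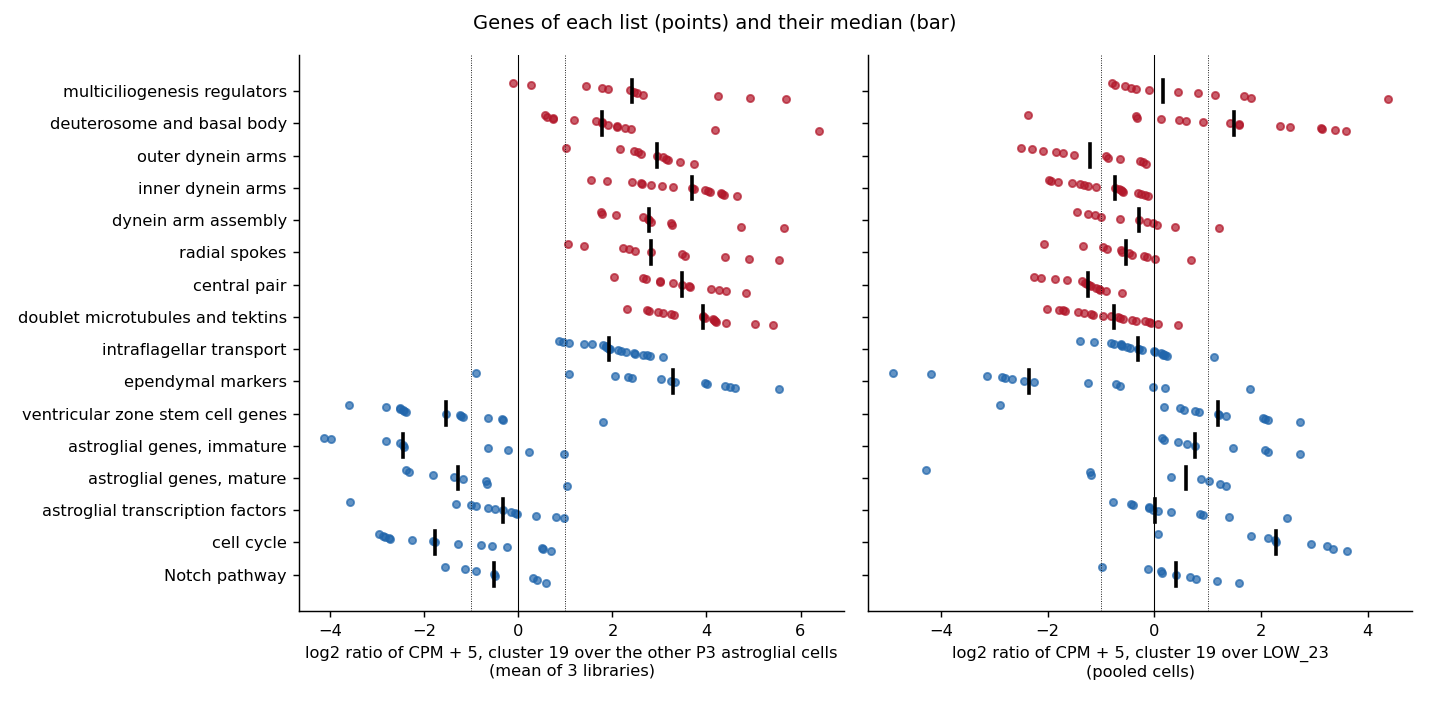
The panels plot the log2 ratio (x axis) of the genes in 16 lists (y axis), one point per measured gene and a black bar at the list's median, for cluster 19 over the other P3 astroglial cells (left, mean of 3 libraries) and over LOW_23 (right, pooled cells), with dotted lines at 1 and -1. On the left the 8 motile cilia lists (red) have medians of 1.78 to 3.92 and the immature astroglial list one of -2.45. On the right the deuterosome and basal body list lies at 1.5 and the central pair list at -1.24.

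Of 12 regulators of multiciliogenesis, 9 were higher in cluster 19 and 3 were neither, with a median ratio of 2.41. *Mcidas*, the coactivator that starts centriole amplification, stood at 81.7, 77.3 and 120 CPM in the 3 libraries of cluster 19 and at 0, 0.0664 and 0.208 CPM in the other cells. Cluster 19 held 119 of the 126 *Mcidas* UMIs of all P3 astroglial cells (94.4%), although it held 1.55% of their UMIs over all genes. *Myb*, a transcription factor that acts early in this programme, stood at 312, 384 and 566 CPM against 1.71, 2.79 and 4.58 CPM. Averaged over all 8778 other cells both genes were thus low in each library, although *Myb* reached 65.6 CPM in the other cells of sub-cluster 15. *Gmnc*, which acts upstream of *Mcidas*, stood at 52.0, 27.2 and 15.3 CPM against 0, 0.597 and 0.333 CPM. *Foxn4*, a forkhead factor of multiciliated cells, had 26 UMIs in the cluster and 3 in the other cells, and *Trp73*, which encodes p73, stood at 14.8, 31.3 and 27.1 CPM against 0, 0.465 and 0.208 CPM. The RFX factors differed among themselves. *Rfx2* had a mean ratio of 2.51 ± 0.43 (SD, n = 3), whereas *Rfx3* had 1.43 ± 0.77 and did not reach 1 in every library. *E2f4* and *E2f5*, which are used well beyond ciliated cells, had 0.27 ± 0.30 and -0.12 ± 0.42 and counted as neither.

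The genes that make and dock basal bodies were also higher, with 10 of 15 measured members past the threshold in every library and a median ratio of 1.78. *Deup1* (chr9:15559864-15627933, minus strand), which encodes the core protein of the deuterosome, had the largest ratio of all named genes at 6.40 ± 0.49 (SD, n = 3), from 639, 403 and 592 CPM against 0.180, 1.26 and 3.04 CPM. *Ccno*, needed for centriole amplification, stood at 111, 146 and 173 CPM against 4.42, 2.46 and 2.50 CPM. *Cdc20b* had 29 UMIs in cluster 19 and 1 in the other 8778 cells. Of the UMIs of these genes among P3 astroglia, cluster 19 held 96.7% for *Cdc20b*, 84.5% for *Deup1* and 44.6% for *Ccno*, against 36.6% for *Foxj1* and 5.52% for *Plk4*, which dividing cells also use. *Plk4*, the kinase of centriole duplication, stood at 111, 83.6 and 74.6 CPM against 24.4, 20.8 and 21.9 CPM, and *Stil*, which acts with it, at 22.3, 31.3 and 78.0 CPM against 7.16, 5.28 and 7.50 CPM. *Cby1*, which helps basal bodies dock, and *Pcm1*, the scaffold of centriolar satellites, had ratios of 2.09 ± 0.30 and 1.64 ± 0.12. *Sass6*, *Cep63*, *Cep78*, *Odf2* and *Poc1b*, with mean ratios of 0.56 to 1.19, were neither.

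**Figure D2:**
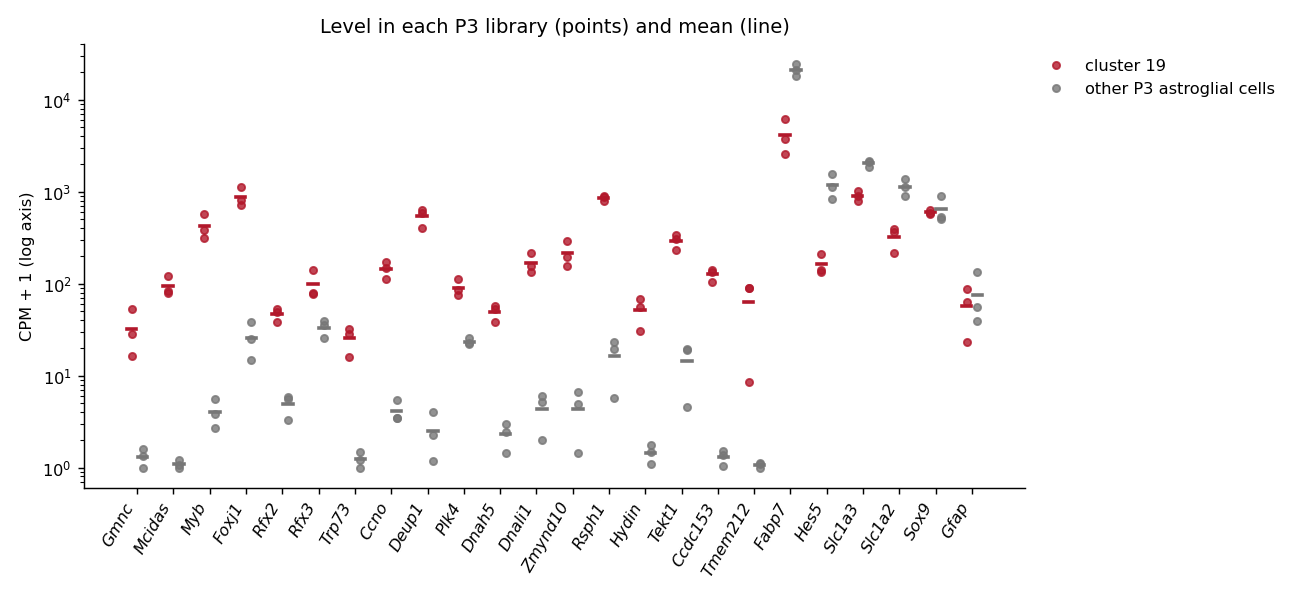
Points give the level of each named gene (x axis) in the 3 P3 libraries on a log axis (y axis, CPM + 1), and lines the mean, for cluster 19 (red) and the other P3 astroglial cells (grey). The multiciliogenesis genes of cluster 19 sit above the other cells in every library, as for *Foxj1* at 713 to 1116 CPM against 13.8 to 37.2 CPM, and *Fabp7* and *Hes5* sit below them.

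The axoneme was represented by nearly all of its measured parts. All 17 inner dynein arm genes were higher, with a median ratio of 3.70, and so were 10 of 11 outer arm genes (2.96), all 11 dynein assembly genes (2.77), 9 of 11 radial spoke genes (2.82), all 13 central pair genes (3.48) and all 17 genes of the doublet microtubules and tektins (3.92). In the other cells the 17 inner arm genes summed to 87.9 CPM and the 14 listed central pair genes to 46.3 CPM. A gene below 10 CPM there could pass the level filter only through cluster 19. The filter thus in part fixed these shares, and the genes that passed through cluster 19 alone were not counted. With no filter, 99 of the 116 listed motile cilia genes were higher. *Ccdc39*, which with *Ccdc40* sets the spacing along the axoneme, stood at 483, 255 and 388 CPM against 10.0, 12.4 and 17.8 CPM. *Dnah9*, an outer arm heavy chain, stood at 126, 73.1 and 91.6 CPM against 0.991, 3.12 and 3.50 CPM. *Zmynd10*, a cytoplasmic factor of dynein assembly, stood at 156, 194 and 290 CPM against 0.451, 3.88 and 5.59 CPM. For each of these the library levels of cluster 19 and of all other cells did not overlap. In the other cells of sub-cluster 15, however, *Dnah9* reached 80.7 CPM. *Lrrc23* stood at 290, 387 and 517 CPM against 0.946, 3.02 and 5.13 CPM, and is known as a radial spoke protein although it was listed here with the assembly factors. In the central pair list, *Spag6l*, a protein of the central apparatus, had a ratio of 4.42 ± 0.53 and *Hydin*, one of its largest proteins, 3.28 ± 0.48. *Enkur*, a protein inside the doublet microtubules, had 3.98 ± 0.90, and *Tekt1*, a tektin of ciliary microtubules, 4.13 ± 0.56. *Dnal4* (1.00 ± 0.33), *Rsph3a* (1.39 ± 0.55) and *Rsph3b* (1.06 ± 0.13) did not reach 1 in every library. *Rsph3a* and *Rsph3b*, as well as *Dnah7a* and *Dnah7b*, are near-identical copies, so the split of their reads is uncertain. The 9 listed members that did not pass the level filter were *Ccdc78*, *Armc4*, *Dnah8*, *Pih1d3*, *Rsph14*, *Cfap221*, *Efhc2*, *Tekt2* and *Tekt3*, which had 0 to 21 UMIs in cluster 19.

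Intraflagellar transport, which carries building blocks along any cilium, was higher too but by less, with 17 of 20 genes past the threshold and a median ratio of 1.94. *Ift22* stood at 549, 545 and 627 CPM against 45.0, 72.8 and 78.3 CPM, *Ift20* at 416, 518 and 636 CPM against 76.6, 78.4 and 64.2 CPM, and *Ift88* at 111, 37.6 and 74.6 CPM against 7.30, 5.54 and 7.21 CPM. Primary cilia use the same transport, and all 3 genes were above 5 CPM in each library of the other astroglia.

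The 12 genes with the largest ratios upwards were *Deup1*, *1700012B09Rik*, *Myb*, *Lrrc23*, *Dynlrb2*, *Rsph1*, *1700094D03Rik*, *Meig1*, *1700016K19Rik*, *Odf3b*, *Ccdc113* and *Cfap45*, among genes of at least 50 CPM in the higher class. *Dynlrb2*, a dynein light chain of motile cilia, stood at 1002, 1156 and 1408 CPM against 5.68, 32.6 and 35.3 CPM. *Meig1* stood at 824, 721 and 765 CPM against 6.80, 17.8 and 17.5 CPM. Of these 12, only *1700012B09Rik*, *Dynlrb2*, *1700094D03Rik*, *1700016K19Rik*, *Odf3b* and *Ccdc113* were in none of the 8 motile cilia lists.

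Ependymal markers were present but at uneven levels. Of 14 listed genes, 12 were higher in every library and 2 were neither, with a median ratio of 3.29. *S100a6*, a calcium-binding protein, stood at 1314, 1461 and 1119 CPM against 216, 388 and 341 CPM, and *Pltp*, a phospholipid transfer protein, at 215, 295 and 414 CPM against 18.0, 24.8 and 34.7 CPM. *Tmem212* stood at 7.42, 89.9 and 89.9 CPM against at most 0.133 CPM, so library 1 was far below the others. *Vim* reached a ratio of 1.08 ± 0.21 and *Nnat* -0.91 ± 0.31, and both were neither. Choroid plexus markers, in contrast, were nearly missing: *Ttr*, the leading transcript of that epithelium, had 2 UMIs in the whole cluster, *Kcnj13* had 1, and 7 of the 15 markers, among them *Aqp1*, *Kl* and *Clic6*, had 0. *Ecrg4*, which ependymal cells also express, and *Otx2*, with ratios of 2.59 ± 0.30 and 1.24 ± 0.27, were the only 2 that passed the level filter. Of the 6 tanycyte markers, *Rax* had 0 UMIs, and *Crym* stood at 661, 1204 and 824 CPM against 284, 906 and 789 CPM.

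Many genes of the immature astroglial state were lower in cluster 19. Of 10 such genes, 6 were lower in every library and none higher, with a median ratio of -2.45. *Fabp7*, the brain lipid-binding protein of radial glia, stood at 2584, 6123 and 3731 CPM against 20931, 24426 and 18359 CPM. *Hes5*, a Notch effector, stood at 134, 211 and 141 CPM against 1552, 1132 and 842 CPM. *Olig1* stood at 7.42, 43.9 and 18.7 CPM against 425, 412 and 428 CPM, and *Olig2* at 0, 8.36 and 3.39 CPM against 151, 135 and 98.1 CPM. Both Olig factors, which direct oligodendrocyte and astrocyte fates, were thus close to absent from cluster 19. This was shared with the other cells of sub-cluster 15, where *Olig1* and *Olig2* stood at 10.1 and 2.52 CPM. Of 15 ventricular zone stem cell genes measured, 8 were lower and 1, *Prom1*, was higher at 1.80 ± 0.52, and the median was -1.54. *Egfr*, the receptor of activated progenitors, had a ratio of -3.61 ± 1.14, *Id3* one of -2.52 ± 0.28 and *Slc1a3*, a glutamate transporter, one of -1.18 ± 0.23. *Nes* was neither, at -0.65 ± 0.33.

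Genes of mature astrocytes were lower in part, and astroglial transcription factors mostly did not differ by the threshold. *Slc1a2*, *Slc1a3*, *Aldoc*, *Aqp4* and *S100b* were the 5 of 8 measured mature genes that were lower. *Aqp4*, the water channel of astrocytes, stood at 59.4, 83.6 and 50.9 CPM against 432, 288 and 309 CPM. *Apoe* and *Glul* had ratios of -0.66 ± 0.09 and -0.70 ± 0.54 and were neither. Of 13 astroglial transcription factors, 12 were neither. *Sox9*, the factor by which the authors picked astroglial clusters, stood at 579, 566 and 638 CPM against 529, 503 and 900 CPM, so the classes overlapped. *Nfix* and *Sox2* had ratios of -0.04 ± 0.17 and -0.33 ± 0.35. The exception was *Dbx2*, a homeobox factor, at 0, 8.36 and 5.09 CPM against 104, 102 and 92.4 CPM.

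The 12 genes farthest down were *Gria2*, *Olig1*, *Olig2*, *Hist1h2ae*, *Grm5*, *Car8*, *Egfr*, *Dbx2*, *Hist1h1b*, *Inka2*, *Gatm* and *Nusap1*. All 12 were also low in the other cells of sub-cluster 15, from 0 CPM for *Dbx2* to 25.2 CPM for *Gria2*, and so were not particular to cluster 19. *Gria2* and *Grm5* encode glutamate receptors, *Gatm* an enzyme of creatine synthesis and *Nusap1* a protein of the mitotic spindle. *Gria2* stood at 0, 12.5 and 10.2 CPM against 298, 163 and 237 CPM, and *Gatm* at 0, 35.5 and 47.5 CPM against 242, 228 and 255 CPM. Reads of the histone genes can be split among near-identical copies, so their values are uncertain.

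Patterning genes of the telencephalon were at the level of the other astroglia. In the paper, however, P3 sub-clusters 4, 12 and 15, which held all cells of cluster 19, grouped with reference astrocytes from outside the telencephalon. The paper proposes that such cells may be contaminants from neighbouring regions, and the other P3 astroglial cells also included them. The dissection left out the subventricular zone, and the region of origin of cluster 19 was not tested. All 6 measured telencephalic patterning genes were neither higher nor lower, with a median ratio of 0.23. *Six3*, a homeobox factor of the forebrain, stood at 96.5, 113 and 112 CPM against 97.7, 98.0 and 94.1 CPM. Of 19 genes that pattern other brain regions none was measured, and 16 had 0 UMIs in the cluster, the others being *Irx5* (11 UMIs), *Irx3* (3) and *En2* (1).

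Cell cycle genes split within cluster 19. Of 15 listed, 8 were lower than in the other P3 astroglial cells and none higher, with a median ratio of -1.78. *Mki67*, a marker of dividing cells, stood at 7.42, 8.36 and 5.09 CPM in cluster 19. The authors' dividing progenitor clusters GPC_8 and GPC_9 had 355 ± 94.1 and 366 ± 102 CPM (SD, n = 3), and the remaining P3 astroglial cells 7.43 ± 3.00 CPM. *Top2a*, which untangles replicated DNA, instead stood at 260, 167 and 415 CPM, between 809 ± 132 and 661 ± 178 CPM in the dividing clusters and 15.9 ± 7.85 CPM in the remaining cells. Cluster 19 thus had the *Mki67* level of non-dividing cells with *Top2a* well above them. It held 360 *Top2a* and 8 *Mki67* UMIs, or 45.0 per *Mki67* UMI, against 2.30 in GPC_8, 1.81 in GPC_9 and 2.15 in the remaining cells. *Cdk1*, the mitotic kinase, lay likewise at 203 ± 52.5 CPM in cluster 19, 443 ± 28.9 and 509 ± 17.1 CPM in the dividing clusters and 14.4 ± 5.51 CPM elsewhere. *Ube2c* and *Birc5*, both of mitosis, stood at 30.3 ± 14.6 and 10.9 ± 10.5 CPM against 666 ± 85.1 and 286 ± 43.2 CPM in GPC_8.

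Among the genes shared by centriole duplication and the cell cycle, *Plk4* stood at 89.9 ± 19.2 CPM in cluster 19, close to the 76.5 ± 16.7 CPM of GPC_8 and above the 8.96 ± 0.670 CPM of the non-dividing cells. *Lig1*, DNA ligase 1, stood at 251 ± 27.3 CPM against 232 ± 40.2 CPM in GPC_8, 31.3 ± 5.38 CPM in GPC_9 and 27.6 ± 3.53 CPM elsewhere, while *Mcm2* of the replicative helicase stood at 10.8 ± 5.10 CPM against 55.4 ± 11.4 CPM in GPC_8. Cluster 19 thus had *Plk4* and *Lig1* at levels like those of GPC_8 and *Mcm2* at that of the non-dividing cells. *Dtl*, chosen after its values were seen and known as a substrate receptor of a ubiquitin ligase, stood at 114 ± 17.4 CPM against 47.0 ± 13.6 CPM in GPC_8. *Cdkn1a*, which encodes the cell cycle inhibitor p21, stood at 156, 150 and 229 CPM in cluster 19 and at 6.35, 6.27 and 8.25 CPM in all other P3 astroglial cells. It was the 1 higher gene of 10 measured genes of cell cycle exit, and *Ccnd1*, cyclin D1, was the 1 lower, at -2.32 ± 0.66. After thinning, *Top2a* was seen in 32.6% of the cells of cluster 19 and *Mki67* in 1.05%. The shares were 9.74% and 6.44% among the other P3 astroglial cells, and 13.9% and 7.79% among P3 endothelial cells. Unthinned, *Top2a* was seen in 56.3% of the cells of cluster 19 and 17.1% of the other P3 astroglial cells, and *Mki67* in 6.25% and 13.8%. Without thinning *Mki67* was seen in 19.2% of the P3 endothelial cells, so their share gives no floor for this gene. The thinned *Mki67* share in cluster 19 rested on 1 of 95 cells and is not read as expression.

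**Figure D3:**
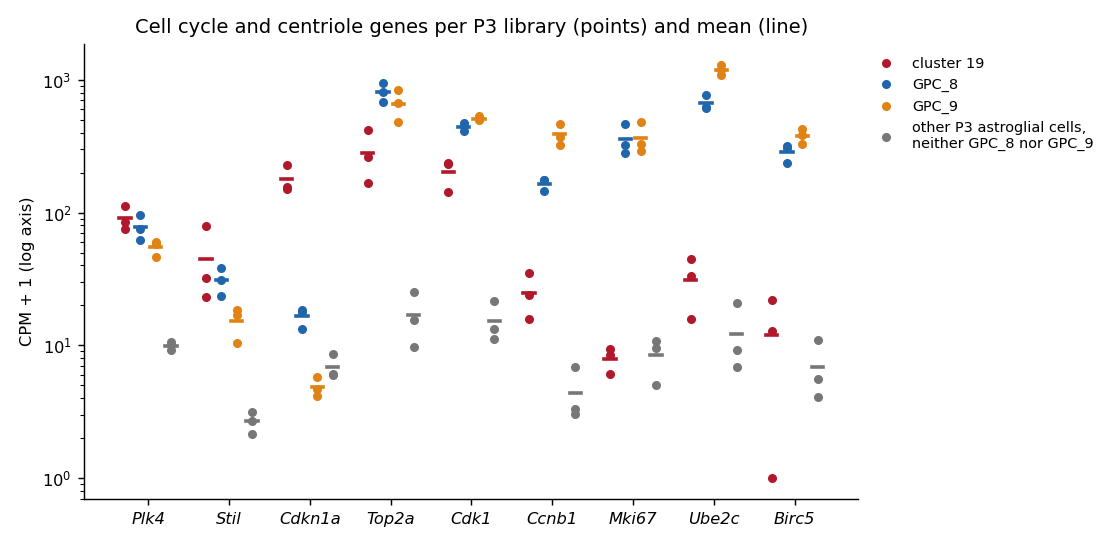
Points give the level (y axis, CPM + 1, log axis) of genes of the cell cycle and of centriole duplication (x axis) in the 3 P3 libraries and lines the mean, for cluster 19, GPC_8, GPC_9 and the other P3 astroglial cells. *Mki67* of cluster 19 lies at 5.09 to 8.36 CPM, level with the non-dividing cells, while *Top2a* lies at 167 to 415 CPM, nearer to the dividing clusters.

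Few genes of other pathways linked to ependymal development passed the threshold. Of 9 measured genes of planar cell polarity, which orients cilia, *Celsr1* was higher at 1.63 ± 0.52 and the other 8 were neither. None of 8 measured Notch pathway genes passed the threshold, *Notch1* standing at 66.8, 79.4 and 71.2 CPM against 134, 87.9 and 96.8 CPM. Of 9 immediate early genes, which respond to handling as well as to signals, *Junb* and *Ier2* were lower, at -1.81 ± 0.50 and -2.18 ± 0.47, and the others were neither.

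Markers of other cell types were scarce. The 7 microglial markers had 1 UMI in all, *Mbp* and *Mog* of the oligodendrocyte markers had 1 and 0, and of the oligodendrocyte precursor markers *Pdgfra* and *Sox10* had 0. Of 10 neuronal markers, *Stmn2* and *Nrxn3* were measured and neither passed the threshold. The summed level of the 6 endothelial markers was 14.8, 6.27 and 153 CPM in the 3 libraries of cluster 19 against 3.51, 2.49 and 12.8 CPM in the other cells. Of their 95 UMIs in the cluster, 85 lay in 1 cell of library 3, which held 35314 UMIs, the most of all 96, and fell into sub-cluster 12, and 87 of the 96 cells had none. Without that cell 96 motile cilia genes were higher, as with it. Haemoglobin UMIs numbered 8, and the 7 mural markers summed to 59.4, 81.5 and 193 CPM against 86.6, 88.5 and 143 CPM.

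In LOW_23, 44 of 45 cells held all 3 markers, against 35 of 96 in cluster 19. Of its 31 cells at P3, 27 came from library 2, 1 from library 1 and 3 from library 3, and all 14 cells at 3m came from library 2, so that levels were pooled over cells and no ratio was taken within libraries. Cluster 19 and LOW_23 were also made from the genes compared, and this comparison is likewise a description without a test. Of 9109 genes measured in it, 863 (9.47%) were at least 2-fold higher in cluster 19 and 932 (10.2%) lower, with a median log2 ratio of 0.08. Of the 114 motile cilia genes measured, 14 were higher in cluster 19 and 41 lower, with a median of -0.62, and the summed level of all 116 was 16185 CPM in cluster 19 and 23345 CPM in LOW_23.

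The lists differed in direction. Of 16 deuterosome and basal body genes, 9 were higher in cluster 19 and 1, *Ccdc78*, lower, with a median of 1.5. *Mcidas* had 119 UMIs in cluster 19 and 0 among the 606310 UMIs of LOW_23, at least 20-fold higher on a floor of 3 UMIs over LOW_23. *Deup1* stood at 522 CPM against 54.4 CPM, *Ccno* at 155 CPM against 8.25 CPM, *Plk4* at 82.3 CPM against 3.30 CPM and *Myb* at 466 CPM against 129 CPM. The genes of the central pair, by contrast, included 12 lower and none higher of 14 (median -1.24), those of the outer arms 6 lower of 12 (-1.21), the inner arms 8 lower of 17 (-0.74) and the doublets 8 lower of 20 (-0.75). Radial spokes had 2 lower of 12 (-0.54), and dynein assembly had 4 lower and 1 higher of 11 (-0.30), so not every axoneme list lay as far down. *Hydin* stood at 56.5 CPM against 289 CPM, *Dnah5*, an outer arm heavy chain, at 52.4 CPM against 239 CPM and *Dnah6*, an inner arm heavy chain, at 123 CPM against 500 CPM. *Foxj1* itself was past the threshold in neither direction, at 921 CPM against 675 CPM, with a ratio of 0.45 that was -0.24 over P3 library 2 alone, and so was *Rsph1*, at 850 CPM against 1316 CPM. Intraflagellar transport had 1 higher and 2 lower genes of 20.

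Ependymal markers were mostly below LOW_23, with 9 of 14 lower and a median of -2.34. The 15 choroid plexus markers summed to 115 CPM in cluster 19 and 3038 CPM in LOW_23, of which *Ecrg4* and *Calml4* gave 1872 and 820 CPM, while *Ttr* had 0 UMIs in both P3 and 3m cells of LOW_23. All 6 measured ones were lower (median -3.19). *Ccdc153* stood at 133 CPM in cluster 19 against 2311 CPM in LOW_23 at P3 and 3081 CPM at 3m, and *Tmem212* at 80.6 CPM against 2197 and 3533 CPM. *Sntn*, which encodes sentan, a protein of the tip of motile cilia, had 1 UMI in the whole of cluster 19 and stood at 478 CPM in LOW_23. The largest differences downwards were *Sntn*, *Pcp4l1*, *Calml4*, *Cdhr4*, *Ecrg4*, *Tmem212*, *Clec3b* and *Sncg*, and *Sncg* had 0 UMIs in cluster 19. *S100a6* was the exception, at 1277 CPM against 363 CPM. Upwards the 8 largest were *Mcidas*, *Plvap*, *Lig1*, *C1ql1*, *Hyls1*, *Shisa8*, *Cdk1* and *Ccno*. *Hyls1*, a centriole protein, stood at 160 CPM against 6.60 CPM. *Plvap*, known from endothelial cells, stood at 165 CPM against 3.30 CPM, and it was found in 57 of the 96 cells of cluster 19, 87 of which held none of the 6 endothelial markers.

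The uneven libraries of LOW_23 bear on these values. Over the P3 cells of library 2 alone, in both groups, the ratios of *Deup1* and *Ccno* were 3.40 and 3.76 and those of *Ccdc153* and *Tmem212* -4.31 and -4.80. *Zic1* and *Zic4*, patterning factors of the septum and dorsal midline, had 0 UMIs in cluster 19 and stood each at 79.2 CPM in LOW_23. Of the astroglial genes, *Fabp7* stood at 4554 CPM in cluster 19 and at 909 and 72.2 CPM in LOW_23 at P3 and 3m. *Mbp* and *Acta2*, markers of oligodendrocytes and of mural cells, stood at 108 and 554 CPM in LOW_23 at 3m against 0.831 and 28.3 CPM in cluster 19, and their part in the differences was not tested.

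The cells of cluster 19 varied widely. Axoneme genes, 76 in all, took a median of 1.01% of a cell's UMIs, from 0.391 to 2.09%, against 0.0347% in the other P3 astroglial cells and 2.07% (1.33 to 3.19) in LOW_23. A set of 8 early genes, *Gmnc*, *Mcidas*, *Myb*, *Ccno*, *Cdc20b*, *Deup1*, *Plk4* and *Foxn4*, which was put together after their values were seen, took 0.120% (0 to 0.528) in cluster 19 and 0.0164% (0 to 0.0659) in LOW_23. Cluster 19 thus reached the higher share of early genes and LOW_23 the higher share of axoneme genes, and the ranges of both shares overlapped. Library medians of the early share were 0.0488, 0.107 and 0.157% in libraries 1, 2 and 3, and those of the axoneme share 1.02, 0.920 and 1.05%. Across the 96 cells the 2 shares had a Pearson r of 0.60 and a Spearman rho of 0.57. The axoneme share had an r of 0.67 and a rho of 0.59 with the share of *Top2a*, and of -0.47 and -0.51 with that of *Fabp7*. These points share libraries, and both shares have the same total of UMIs as denominator.

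**Figure D4:**
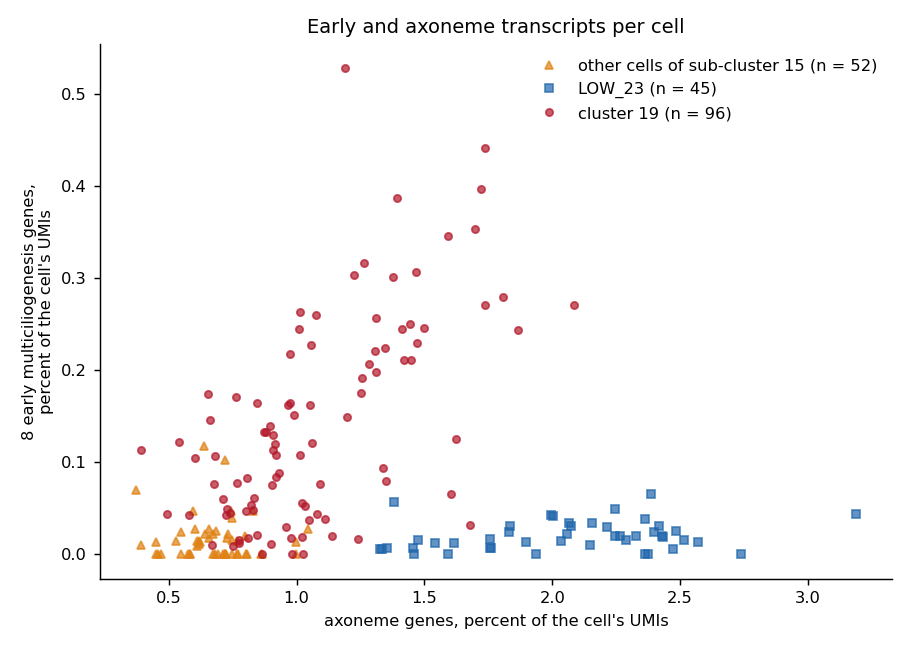
Each point is 1 cell, placed by the percent of its UMIs in 76 axoneme genes (x axis) and in 8 early multiciliogenesis genes (y axis), for cluster 19 (n = 96), the other cells of sub-cluster 15 (n = 52) and LOW_23 (n = 45). Cluster 19 reaches up to 0.528% early genes, the other cells of sub-cluster 15 lie at the lower left with a median of 0.681% axoneme genes, and LOW_23 lies at the lower right with 2.07%.

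*Mcidas* UMIs were found in 44 of the 96 cells, 4, 14 and 26 in libraries 1, 2 and 3. Those cells were deeper, at a median of 12812 against 9080 UMIs. Their pooled level of *Top2a* was 413 CPM against 161 CPM in the 52 cells without *Mcidas*, that of *Deup1* 714 CPM against 288 CPM, and that of *Tmem212* 37.8 CPM against 133 CPM. The median axoneme share was 1.25% against 0.977%, and *Fabp7* stood at 5337 CPM against 3598 CPM. Cells with *Mcidas* thus had higher values of each of these but *Tmem212*, of which a single cell held 16 of the 97 UMIs. Of the 5478 *Fabp7* UMIs of the cluster, 781 and 621 lay in single *Mcidas* cells of library 2, with 29889 and 31795 UMIs. The pooled *Fabp7* level of the cells with *Mcidas* rested in part on these, and the part of depth in the differences was not tested.

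The other 52 cells of sub-cluster 15, named AST_P3_1 in the first clustering, shared the axoneme genes but few of the early ones. Their axoneme share was 0.681% (0.371 to 1.04) and their early share 0.0125% (0 to 0.118), and the summed level of the motile cilia genes was 8367 CPM against 16185 CPM in cluster 19. *Foxj1* stood at 323 CPM against 921 CPM, *Rsph1* at 381 CPM against 850 CPM, *Deup1* at 68.1 CPM against 522 CPM and *Ccno* at 12.6 CPM against 155 CPM. *Mcidas* and *Top2a* had 0 UMIs in these 52 cells. *Fabp7*, at 5279 CPM, was near its level in cluster 19 (4554 CPM) and below the 21503 CPM of all other P3 astroglial cells, and *Cdkn1a* stood at 53.0 CPM against 190 CPM. Of these cells 3 held all 3 markers.

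The last comparison gives the difference in motile cilia genes between P3 and adult astroglia with and without these 96 cells. Cluster 19 was made from these transcripts and exists at P3 alone, so a smaller difference without it follows from that choice, and the values give its size as a description. UMIs of all astroglial cells were summed per library, 22327104 to 30617140 at P3 and 1157485 to 1843998 at 3m, and tested between the ages with edgeR, with a gene called where it differed at least 2-fold and its adjusted p did not exceed 0.05. In such sums fewer cells that carry a transcript and less of it per cell cannot be told apart. LOW_23 lay outside the astroglial set and was in neither sum, although all 14 of its cells at 3m held all 3 markers. The differences therefore hold for cells annotated as astroglial and not for all cells with motile cilia transcripts. With cluster 19 kept in, 2204 of 13530 genes tested (16.3%) were lower and 2140 (15.8%) higher at 3m. With it left out, 2161 of 13469 (16.0%) were lower and 2137 (15.9%) higher. Scaled by library totals alone, the median of all genes was -0.24 with the cluster in place of -0.04, and 38.6% of the calls were higher in place of 49.3% with the cluster, and without it 39.7% in place of 49.7%. Both tests share all 3m cells and all P3 cells but the 96, so their values stand side by side only.

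Fewer motile cilia genes were called without these 96 cells. With cluster 19 kept in, 95 of the 116 genes were tested, 47 were lower and 3 higher at 3m, with a median log2 fold change of -1.43 against -0.04 over all genes. With it left out, 86 were tested, 30 were lower, all of them among the 47, and 3 were higher, with a median of -0.90 against -0.04. With the 12 and 5 called genes that had 0 UMIs at 3m set to their bound, the medians were -1.41 and -0.90. Of the 17 genes called only with cluster 19, 9 were no longer tested because too few UMIs were left and 8 were tested and not called. Without P3 replicate 2, and equally without P3 replicate 3, 17 genes were lower with cluster 19 kept in. With it left out the counts were 15 without replicate 2 and 13 without replicate 3.

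*Foxj1* stood at 18.6, 34.6 and 63.1 CPM in the 3 P3 sums with cluster 19, at 13.8, 23.9 and 37.2 CPM without it, and at 5.18, 1.63 and 6.11 CPM at 3m. Its log2 fold change was -3.05 ± 0.55 (SE) with an edgeR adjusted p = 0.000482, and -2.43 ± 0.49 with an edgeR adjusted p = 0.000938 without the cluster, so it was lower at 3m in both. *Rsph1* fell on the log2 scale by 3.61 ± 0.75 (adjusted p = 0.0014) with the cluster and by 2.75 ± 0.80 (adjusted p = 0.0112) without it. *Mns1*, a protein of the doublet microtubules, depended on the cluster little, at -1.99 ± 0.24 (adjusted p = 1.8e-05) and -1.83 ± 0.23 (adjusted p = 1.96e-05). *Deup1* had 743 UMIs in the P3 sums with cluster 19, 115 without it and 0 at 3m, so that with the cluster P3 was at least 14.3-fold higher, on a floor of 3 UMIs over the 3m group, and without it the gene was not tested. *Lrrc23* had 764 and 235 UMIs at P3 and 2 at 3m, a ratio of 22.0 (95% exact counting interval 6.08 to 182) with the cluster and 6.89 (1.89 to 57.2) without it. It was called with the cluster (adjusted p = 0.00918) and not without it (adjusted p = 0.0758). *Mcidas*, with 126 and 7 UMIs at P3, was tested in neither.

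The 3 motile cilia genes that were higher at 3m, *Dnah7b*, *Spag1* and *Tppp3*, were so with and without cluster 19. *Tppp3*, a tubulin-binding protein, stood at 44.1, 31.5 and 27.2 CPM at 3m against 5.46, 13.3 and 14.7 CPM at P3 with the cluster and 3.42, 10.4 and 10.9 CPM without it. *Spag1*, a dynein assembly factor, rose on the log2 scale by 1.03 ± 0.27 with the cluster and by 1.18 ± 0.27 without it (adjusted p = 0.00606 and 0.0023). The call of *Spag1* was lost under RLE scaling with the cluster kept in and with no scaling in both sums, where its direction stayed the same.

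**Figure D5:**
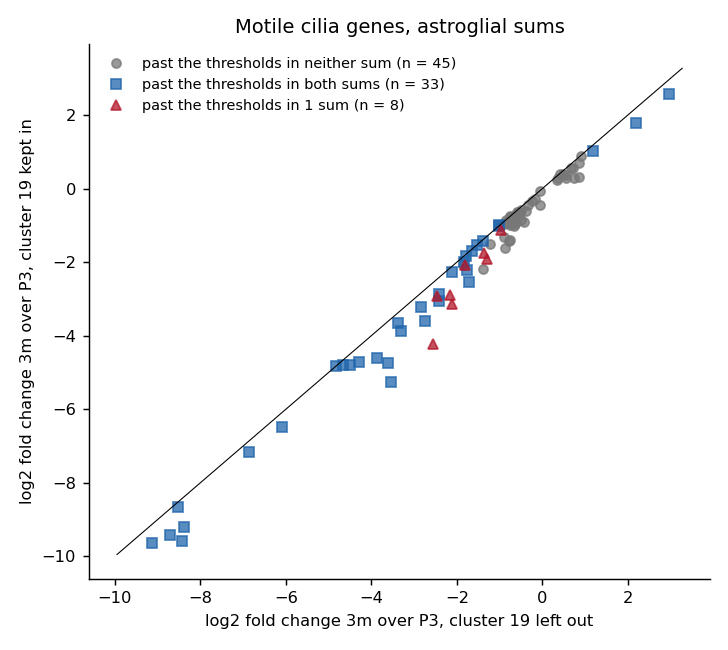
Each point is 1 of the 86 motile cilia genes tested in both sums, with its log2 fold change of 3m over P3 when cluster 19 is left out (x axis) and kept in (y axis), and the line marks equal values. Of them 84 have the lower fold change with cluster 19 kept in, 33 pass the thresholds in both sums, 8 in 1 sum and 45 in neither.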

How the data were processed

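Single cells were sequenced with 10x Genomics 3′ chemistry from 3 preparations at P3 and 3 at 3m. The authors made the deposited counts (UMIs per gene and cell, not normalized) with Cell Ranger on mm10, and the deposited annotation with Seurat (3.1.1 in the submitters' processing notes, a later version in the study's methods), keeping cells with over 500 genes and under 10% mitochondrial reads. They clustered all cells at a resolution of 0.6 into 24 clusters and re-clustered the 11 astroglial ones at 0.7. No doublet removal is given in the sources used here, and no doublet caller was run. Samples were grouped by the labels. Depth was 5471573 to 37795021 UMIs per library over all barcodes. Intervals and floors (3 UMIs) cover counting error only.

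Cells were matched by barcode to the annotation, and UMIs summed per class and library. Ratios were log2 of CPM + 5, for genes with a mean of at least 10 CPM, with a threshold of 1 in every P3 library (pooled cells for LOW_23). Clusters were made from the same genes, so these carry no test. Ages were compared on summed counts with edgeR 4.0.16 (R 4.3.3; TMM, filterByExpr, quasi-likelihood, Benjamini-Hochberg over all genes tested, adjusted p at most 0.05, log2 fold change of at least 1), after the fit was tested on simulated data. SE is the absolute log2 fold change divided by the square root of F, an approximation. Separate preparations do not name the animals, so p-values measure the spread between preparations. Depth per cell was compared with an exact sign-flip permutation test (scipy 1.17.1). Thinning drew 2000 UMIs per cell without replacement. Upstream sequences come from RefSeq and gene positions from the mouse GRCm38 annotation.

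The cluster and the 30 gene lists were chosen with earlier results of these data known. Genes named were the markers, up to 5 members per list with the highest mean level, members that define a list or go against it, the 12 largest ratios each way (at least 50 CPM in the higher class), the 8 largest against LOW_23, and members whose age call changed without cluster 19. Other members named were chosen after their values were seen. Alternatives covered the pseudocount, filters, scaling, DESeq2 1.42.0, the replicate block, each library left out, thinning and other sets of cells. Values of some list members are not reported here.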

Additional observations from a re-analysis of the deposited data

How the results depend on the processing

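No called value changed sign under the alternatives run, although *Foxj1* against LOW_23, past the threshold in neither, went from 0.45 to -0.24 over P3 library 2 alone. Of 157 alternative values of the counts and the depth difference, 137 stayed within 1.5 times the reported count or, for the depth difference, kept its sign, and 20 did not. Of 864 alternative values of single genes, 741 stayed within the spread between libraries and 123 did not. The cause was not tested beyond what each alternative changes by construction (fewer genes, cells or libraries). Against the other P3 astroglial cells, a pseudocount of 20 CPM gave 549 higher and 160 lower genes, a mean of at least 50 CPM gave 371 and 151 with 50 motile cilia genes higher, and thinning gave 563 higher genes. Leaving out each P3 library gave 379 to 501 lower genes (501 without replicate 2). Against LOW_23, higher and lower genes numbered 395 and 509 with a pseudocount of 20 CPM, 292 and 348 at a mean of 50 CPM, 1710 and 1687 after thinning, and 1953 and 1261 against its 3m cells alone, so that the larger side changed in the last 2 pairs. Between the ages, motile cilia genes lower at 3m numbered 17 to 43 with cluster 19 and 13 to 27 without it when each library was left out, and those higher without it 2 to 5. Over all genes with cluster 19 kept in, the larger side also changed without each P3 replicate. Without replicates 1, 2 and 3 in turn, 1783, 1662 and 1681 genes were higher and 1735, 1572 and 1603 lower. It changed as well without GPC_8 and GPC_9, with 1906 higher and 1796 lower. Without a filter on low counts 48 motile cilia genes were lower with the cluster left out. DESeq2 called 48 of them lower with cluster 19 and 30 without. With the replicate number as a block 52 and 37 of them were lower, and samples that share a number deviated together with correlations of 0.21, 0.10 and 0.039, so the number was not taken as a pairing. Only number 1 correlated best with its own number. Alternatives added after seeing the data were leaving out the other cells of sub-cluster 15 or the cell with most endothelial UMIs, and P3 library 2 alone for LOW_23. Without those sub-cluster 15 cells as well, 28 motile cilia genes were lower with cluster 19 left out. With 96 cells and 3 libraries, genes of few UMIs, such as *Cdc20b* or *Foxn4*, have levels set by about 30 molecules.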
